A study of Mus musculus with 10 samples.

Results

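The genes described here build and regulate cilia. They are the genes of a deposited count table whose symbols name axonemal dyneins (Dnah, Dnai and Dnaic), dynein assembly factors (Dnaaf), cilia and flagella associated proteins (Cfap), intraflagellar transport proteins (Ift), radial spoke proteins (Rsph), tektins (Tekt), sperm-associated antigens (Spag) or Bardet-Biedl syndrome proteins (Bbs), together with Foxj1, Rfx2, Rfx3, Mcidas, Hydin and Tppp3. Of 15790 genes in the table, 75 matched and 69 had a total of 30 or more counts over the 10 libraries and were kept. They were sorted by known role into 39 genes of the motile axoneme and its assembly (called motile-only), 22 genes used by primary and motile cilia alike (called general cilium genes), 4 regulators and 4 genes that are not ciliary components in the strict sense. Just inside the minimum were Cfap44 and Cfap74 with 30 counts each, Mcidas with 35 and Dnah7b with 42, and just outside it were Spag17 with 26, Spag16 with 25, Bbs10 with 23, Spag11b with 20, Cfap221 with 16 and Tekt3 with 14.

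A motile cilium beats because dynein arms slide the doublet microtubules of its axoneme, and radial spokes and the central apparatus coordinate that sliding. Foxj1, a forkhead transcription factor, and the Rfx factors switch these genes on, while intraflagellar transport and the BBSome move cargo in every kind of cilium, including the single primary cilium that most cells can form. The thymic medulla is known to hold epithelial cells that take on the programmes of other tissues, among them a ciliated one.

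The study profiled bulk RNA of sorted thymic epithelial cells (TEC), the stromal cells that support T cell development, by MARS-seq, a method that counts transcript 3′ ends. AR3_mut (3 libraries) is labelled Foxn1 del AR3 mut, nude (4 libraries) is labelled nu/nu, and AR3_het (3 libraries) is labelled Foxn1 del AR3 het. AR3_mut and AR3_het are C57BL/6 at 4.5 weeks of age, and nude is ICR at 5 weeks, so genotype, strain and age cannot be told apart in nude. Foxn1 is the forkhead factor that TEC need for their development, and every group carries some change in it, the AR3_het controls included. The labels do not say whether replicate libraries stem from different mice, and the p-values cover the spread between these libraries, which may be technical.

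Depth ran from 1056066 counts in AR3_mut 3 to 4175851 in AR3_het 1, and the 4 nude libraries lay between 1901282 and 3302161. Foxn1 itself had 4, 2 and 2 counts in AR3_mut and 4, 3, 1 and 2 counts in nude, against 1844, 1046 and 1711 counts in AR3_het. The 5 epithelial markers (Epcam, Krt8, Krt18, Krt5 and Krt14) were detected in every library, with a summed level of 1713 to 4329 CPM in AR3_mut, 4215 to 5833 CPM in the nude libraries and 6792 to 10486 CPM in AR3_het (CPM are counts scaled to a common library size with TMM factors). Markers of other cells also differed: the summed level of 6 fibroblast markers was 2711 to 5806 CPM in AR3_mut, 4463 to 12879 CPM in the nude libraries and 128 to 235 CPM in AR3_het. The 6 thymocyte markers summed to 7.53 to 10.9 CPM in AR3_mut, 3.3 to 7.37 CPM in the nude libraries and 514 to 952 CPM in AR3_het. The endothelial list summed to 2460.1 to 2972 CPM in AR3_mut, 486 to 967 CPM in the nude libraries and 87.5 to 101 CPM in AR3_het, and the pericyte and smooth muscle list to 1001 to 1596 CPM in AR3_mut, 209 to 668 CPM in the nude libraries and 226 to 252 CPM in AR3_het. The tuft cell list, another epithelial type of the medulla, summed to 16.4 to 23.9 CPM in AR3_mut, 15.7 to 37.2 CPM in the nude libraries and 442 to 748 CPM in AR3_het. Fewer cells of a type and less RNA per cell cannot be told apart in such bulk libraries, and the part of these other cells in the ciliary results was not tested.

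One library stood apart in the motile-only genes. The 39 genes summed to 903, 188 and 131 CPM in AR3_mut 1, 2 and 3, 151, 171, 211 and 172 CPM in nude 1 to 4 and 290.1, 299 and 245 CPM in AR3_het 1, 2 and 3. AR3_mut 1 was the highest of all 10 libraries, while AR3_mut 2 and 3 lay below every AR3_het library and in or below the range of nude. A total of 31 of the 39 genes (79.5%) had their highest level in AR3_mut 1, against 5 of the 22 general cilium genes and 7.71% of the 12912 genes tested. Of the 39, 12 were below the count filter applied to the 12912, and of the 27 that passed it 19 (70.4%) were highest in AR3_mut 1, which itself helped some of them to pass. The median ratio of AR3_mut 1 to the mean of AR3_mut 2 and 3 was 7.43 over the motile-only genes (5.82 over the 27), 1.38 over the general cilium genes and 0.999 over all genes tested. The general cilium genes summed to 1045, 794 and 753 CPM in AR3_mut, 857, 927, 977 and 893 CPM in nude and 836, 945 and 859.9 CPM in AR3_het. AR3_mut 1 was the highest of all 10 libraries here too, and AR3_mut 2 and 3 were the lowest, while nude and AR3_het overlapped.

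**Figure D1:**
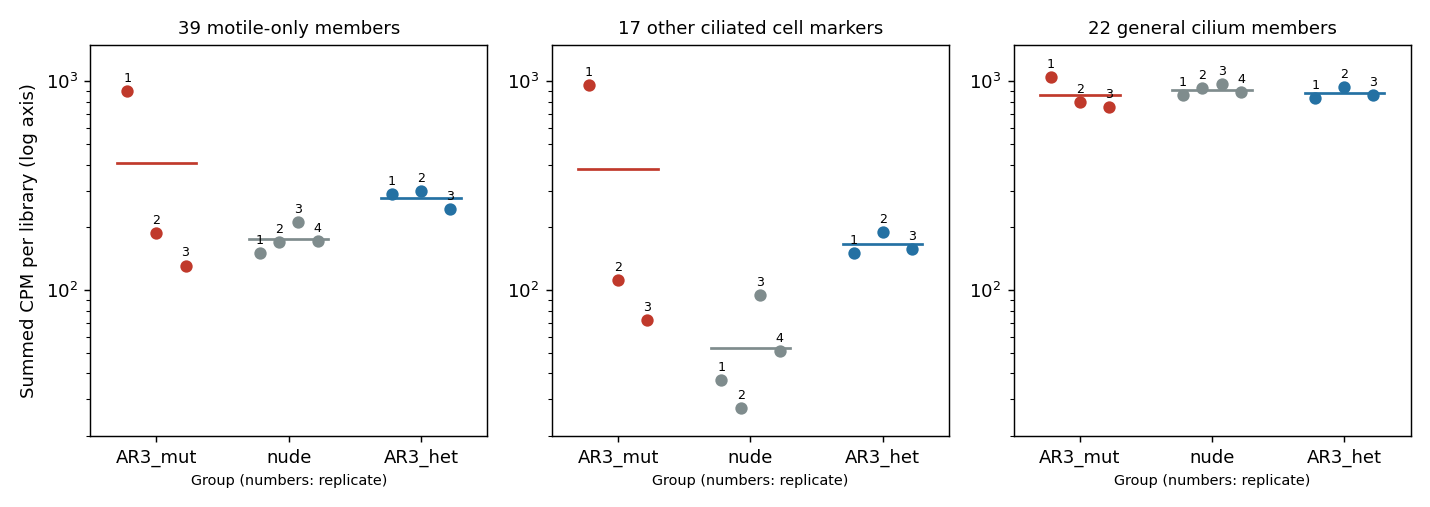
Summed level in each library (CPM, log axis) of the 39 motile-only genes, 17 ciliated cell markers outside the gene set and the 22 general cilium genes; points are libraries numbered by replicate and lines are group means. AR3_mut 1 lies at 903 CPM in the left panel, against 188 and 131 CPM for AR3_mut 2 and 3, while the general cilium genes lie between 753 and 1045 CPM in every library.

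Summed, the 17 measured markers of ciliated cells that are not in the gene set were also highest in AR3_mut 1. They summed to 958, 112 and 71.7 CPM in AR3_mut, 37.2, 27.2, 95.1 and 51.2 CPM in nude and 151, 191 and 157 CPM in AR3_het. Ccdc153 had 251, 20.3 and 7.96 CPM in AR3_mut, 1.81, 0, 25.4 and 3.28 CPM in nude, and 29.6, 27.9 and 23.4 CPM in AR3_het. Tmem212 had 104, 6.37 and 0.995 CPM in AR3_mut, 0, 0, 3.87 and 1.23 CPM in nude, and 12, 11.5 and 5.36 CPM in AR3_het. None of the 17 was at 0 in AR3_mut 1 or in an AR3_het library, whereas 9 were at 0 in nude 2. Not all of the 17 followed the sum: Ccno, given below, was higher in AR3_het 2 and 3 than in AR3_mut 1. AR3_mut 1 was also high in the myeloid list, at 3248 CPM against 329.9 and 175 CPM in AR3_mut 2 and 3, of which Lyz2 alone gave 3173 CPM and the macrophage marker C1qa 10.9 CPM. The part of these cells in the values of AR3_mut 1 was not tested, and the comparisons with AR3_mut are given with and without that library.

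**Figure D2:**
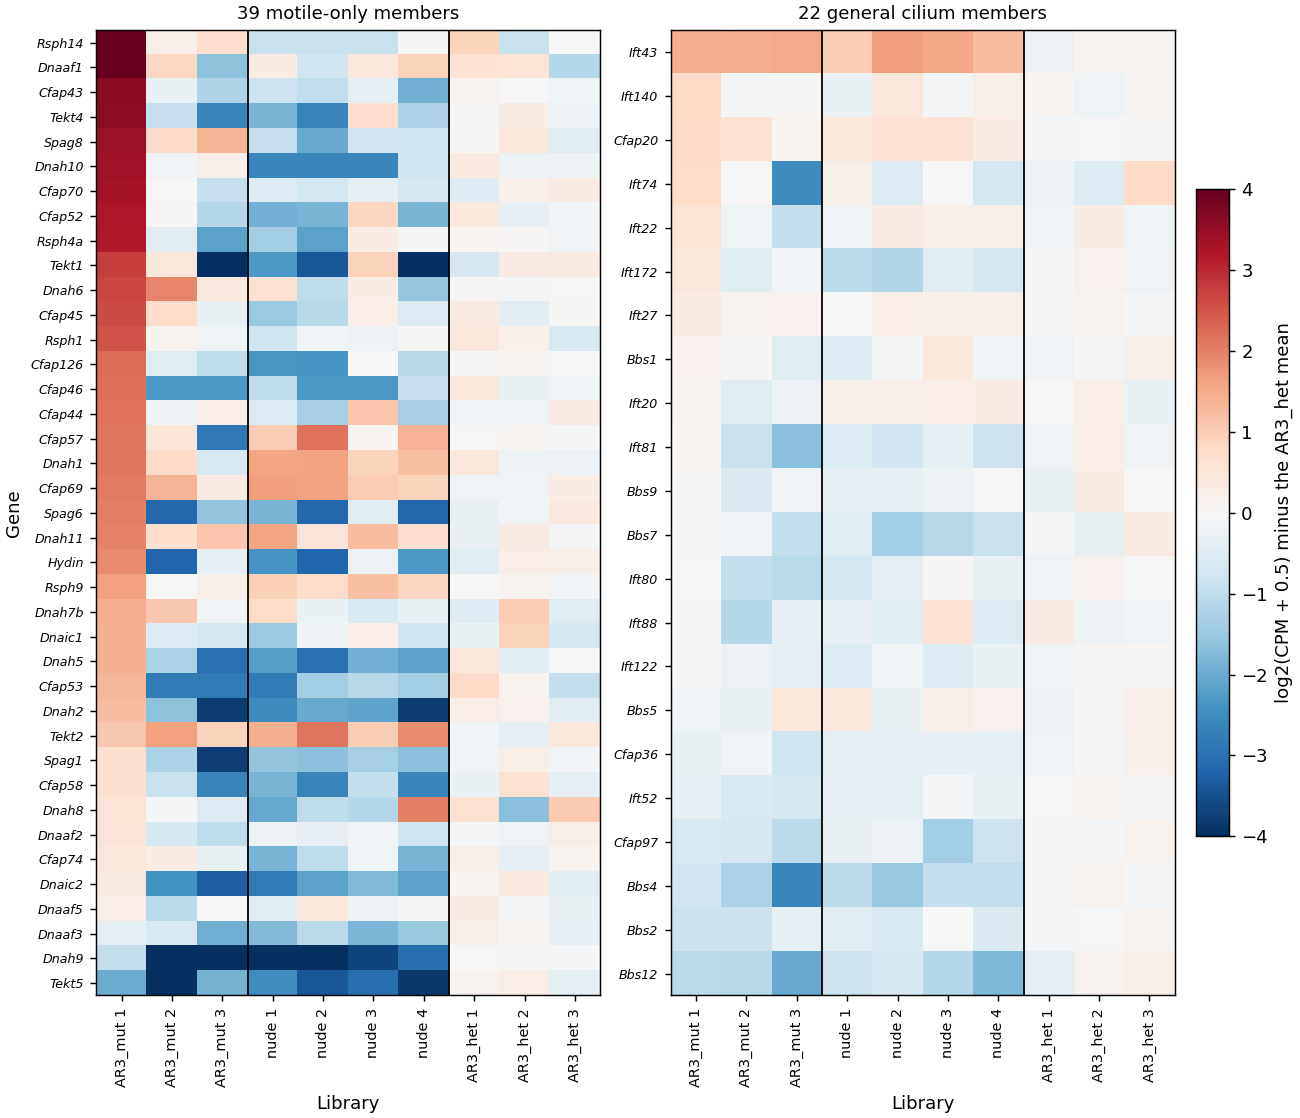
Level of each gene in each library as log2(CPM + 0.5) minus the mean of the AR3_het libraries, for motile-only genes (left) and general cilium genes (right), ordered by AR3_mut 1. AR3_mut 1 is above the AR3_het mean for 36 of 39 motile-only genes, and Dnaaf3, Dnah9 and Tekt5 at the foot of the left panel are the exceptions.

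Of the 2 regulators with enough counts to be tested, Rfx2 rose in both groups against AR3_het and Foxj1 did not pass. Foxj1 (chr11:116330704-116335399, minus strand, GRCm38) had 172, 22 and 13.9 CPM in AR3_mut, 11.2, 10.7, 32.1 and 15.1 CPM in nude, and 37, 34.9 and 28.5 CPM in AR3_het. AR3_mut 1 was far above every other library, and AR3_mut 2 and 3 lay below every AR3_het library. The log2 fold change of Foxj1 was 1.11 ± 0.75 (SE, adjusted p = 0.265) for AR3_mut, -0.86 ± 0.46 (SE, adjusted p = 0.163) without AR3_mut 1, and -0.98 ± 0.73 (SE, adjusted p = 0.296) for nude. In the fit without AR3_mut 1 the value for nude was -0.97 ± 0.35 (SE, adjusted p = 0.0415), past the threshold. Mcidas, the coregulator that starts multiciliated cell differentiation upstream of Foxj1, was too low to be tested. It had 3.91, 1.74 and 0 CPM in AR3_mut, 0, 0, 0 and 0 CPM in nude, and 1.03, 1.21 and 2.79 CPM in AR3_het. Its 0 counts over the 4 nude libraries make it at least 5.41-fold lower in nude than in AR3_het (a floor of 3 counts taken over all nude libraries). The authors' deposited table gave Mcidas 4.46 (adjusted p = 0.00976, DESeq2) for AR3_het over nude. For AR3_mut over nude it gave 4.68 (adjusted p = 0.0271, DESeq2) for Mcidas and 2.03 (adjusted p = 0.0372, DESeq2) for Foxj1. Those values were not recomputed without AR3_mut 1.

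Rfx2, a winged-helix factor that binds the X-box of ciliary promoters and works with Foxj1, was higher in AR3_mut and nude. It had 17.2, 22.6 and 24.9 CPM in AR3_mut, 17.3, 21.9, 10.5 and 29.5 CPM in nude, and 8.69, 7.27 and 4.93 CPM in AR3_het. All 7 AR3_mut and nude libraries lay above all 3 AR3_het libraries. The rise passed edgeR's quasi-likelihood test with Benjamini-Hochberg adjustment in both comparisons, with 1.61 ± 0.38 (SE, adjusted p = 0.00487) on the log2 scale in AR3_mut and 1.51 ± 0.35 (SE, adjusted p = 0.00382) in nude, and it was 1.76 ± 0.42 (SE, adjusted p = 0.00708) in AR3_mut without AR3_mut 1. Rfx3, a related factor, had 2.35, 0.579 and 1.99 CPM in AR3_mut, 1.81, 1.65, 3.87 and 1.64 CPM in nude, and 2.48, 2.73 and 3.43 CPM in AR3_het. It was below the filter on low counts and was not tested.

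Because Rfx factors bind the X-box, the 250 bases before the RefSeq gene starts (build GRCm38.p6) were searched for it on both strands. The pattern was GTNRCC, a spacer of a few bases or none, and RGYAAC (N is any base, R is A or G, Y is C or T). Looser repeats were not counted, so a gene without a match may still have an X-box. Of the 69 genes, 58 had a promoter in the table; the others are Cfap53, Cfap97, Dnaaf1, Foxj1, Ift122, Ift80, Ift81, Rsph1, Rsph4a, Spag1 and Tppp3. An X-box was found for 8 of 34 motile-only genes (23.5%: Cfap44, Cfap45, Cfap58, Dnaaf2, Dnaic1, Dnaic2, Hydin and Tekt2), 0 of 18 general cilium genes and 402 of all 27025 genes with a promoter (1.49%). The 6 letters GTTGCC, which can form one arm of an X-box and so overlap it, were found for 12 of 34 motile-only genes (35.3%), 4 of 18 general cilium genes (22.2%) and 11.8% of all genes. A match describes these letters and is no evidence of binding. The 5 promoters below belong to genes with unlike patterns described in the following paragraphs, and capitals mark the X-box; Dnah9 and Spag8 have no match in this window. They lie at chr11:114727169-114727418 (plus strand, Dnaic2), chr8:110266727-110266976 (plus strand, Hydin), chr4:126325689-126325938 (minus strand, Tekt2, the most upstream of its RefSeq starts), chr11:66168552-66168801 (minus strand, Dnah9) and chr4:43653595-43653844 (minus strand, Spag8).
Dnaic2: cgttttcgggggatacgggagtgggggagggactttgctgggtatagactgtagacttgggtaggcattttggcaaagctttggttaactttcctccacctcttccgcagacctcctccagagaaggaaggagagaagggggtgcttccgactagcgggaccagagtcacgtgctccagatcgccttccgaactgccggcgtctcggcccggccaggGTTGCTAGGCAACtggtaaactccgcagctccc
Hydin: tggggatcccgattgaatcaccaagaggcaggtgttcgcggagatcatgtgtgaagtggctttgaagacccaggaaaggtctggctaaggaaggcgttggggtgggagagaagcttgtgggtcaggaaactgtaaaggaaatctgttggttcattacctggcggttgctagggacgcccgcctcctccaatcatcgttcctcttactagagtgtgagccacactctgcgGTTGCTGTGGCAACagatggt
Tekt2: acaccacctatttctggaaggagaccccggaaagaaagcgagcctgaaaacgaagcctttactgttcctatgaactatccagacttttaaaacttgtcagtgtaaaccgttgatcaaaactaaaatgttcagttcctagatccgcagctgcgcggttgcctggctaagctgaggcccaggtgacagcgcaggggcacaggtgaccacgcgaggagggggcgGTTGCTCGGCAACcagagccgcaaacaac
Dnah9: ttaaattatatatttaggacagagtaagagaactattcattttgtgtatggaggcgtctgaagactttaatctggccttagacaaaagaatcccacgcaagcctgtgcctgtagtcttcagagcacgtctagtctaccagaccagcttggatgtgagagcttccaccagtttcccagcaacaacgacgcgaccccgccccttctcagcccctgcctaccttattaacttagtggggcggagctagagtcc
Spag8: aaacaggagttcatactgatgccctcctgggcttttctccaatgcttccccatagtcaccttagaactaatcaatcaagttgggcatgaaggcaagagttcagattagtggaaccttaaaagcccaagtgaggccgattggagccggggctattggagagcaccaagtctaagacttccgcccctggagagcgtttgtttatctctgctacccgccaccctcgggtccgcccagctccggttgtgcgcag
In Dnaic2 the X-box covers bases 33 to 21 before the start, in Hydin bases 21 to 8 and in Tekt2 bases 29 to 17.

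In AR3_mut against AR3_het, 27 of the 39 motile-only genes had enough counts to be tested, and 4 rose and 2 fell. The background is high: 41.8% of the 12912 genes tested passed in this comparison, 21.2% higher and 20.6% lower. The 4 that rose were Spag8, Dnah11, Cfap69 and Tekt2, and the 2 that fell were Tekt5 and Dnah9. The median log2 fold change of the 27 was 0.80 (-0.04 over all genes tested) and 18 of the 27 values were positive. Genes that pass a filter on low counts through 1 high group must differ between groups, so these counts describe the 27 genes and not the set. Without AR3_mut 1, 20 of 27 values were negative, the median was -0.74, 1 gene rose (Tekt2) and 6 fell (Cfap53, Dnah2, Dnah9, Dnaic2, Spag1 and Tekt5), where 38.8% of 13390 genes passed, 19.2% higher and 19.5% lower. Other libraries also moved the count of 6 genes that passed: it was 13 without AR3_mut 3 (12 higher and 1 lower), where 37.6% of all genes passed, 2 without AR3_het 1 (1 higher and 1 lower), where 33.8% did, and 3 without AR3_het 2 (2 higher and 1 lower), where 34.9% did.

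The outer arm heavy chain Dnah9 (chr11:65831282-66168551, minus strand) and the tektin Tekt5 (chr16:10357948-10395490, minus strand) were the 2 genes that fell with and without AR3_mut 1. Dnah9 had 13.7, 0 and 0.995 CPM in AR3_mut, 0.723, 0.412, 1.66 and 2.87 CPM in nude, and 27.1, 27.6 and 26.2 CPM in AR3_het. The AR3_het libraries differed by little and lay above all others, including AR3_mut 1. The log2 fold change was -2.21 ± 0.79 (SE, adjusted p = 0.041) in AR3_mut and -4.24 ± 0.83 (SE, adjusted p = 0.0013) in nude. Without AR3_mut 1, AR3_mut held 1 count and AR3_het 344, a log2 ratio of -6.20 with a 95% counting interval of -11.51 to -3.71, and the test gave adjusted p = 0.000308. Tekt5, which encodes a filament-forming protein of the doublet microtubules best known from sperm, had 7.43, 0.579 and 7.96 CPM in AR3_mut, 5.06, 2.47, 3.32 and 1.64 CPM in nude, and 33.5, 37 and 23.2 CPM in AR3_het. Again no library of AR3_mut or nude reached the AR3_het range. Its log2 fold change was -2.57 ± 0.56 (SE, adjusted p = 0.00315) in AR3_mut, -3.10 ± 0.70 (SE, adjusted p = 0.00536) without AR3_mut 1, and -3.29 ± 0.51 (SE, adjusted p = 0.000256) in nude.

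Relative to Foxj1, the motile-only genes differed among themselves. Per Foxj1 count, 14 of the 39 were lower in AR3_mut 1 than in every AR3_het library, 11 were higher and 14 lay within the AR3_het range. Foxj1 itself was far higher in AR3_mut 1 than in AR3_het, so a gene that rose less than Foxj1 is lower on this scale. In all AR3_mut and nude libraries 6 of the 39 were below every AR3_het library: Cfap58, Dnah2, Dnah5, Dnah9, Dnaic2 and Tekt5. The shares of all genes that do the same were not computed, so these counts describe the 39 genes and have no background. The genes given next were chosen after their values were seen. Dnah9 had 0.0794, 0 and 0.0714 counts per Foxj1 count in AR3_mut, 0.0645, 0.0385, 0.0517 and 0.189 in nude, and 0.732, 0.791 and 0.917 in AR3_het. Tekt5 had 0.0431, 0.0263 and 0.571 in AR3_mut, 0.452, 0.231, 0.103 and 0.108 in nude, and 0.905, 1.06 and 0.812 in AR3_het. Dnaic2 had 0.175, 0.184 and 0.143 in AR3_mut, 0.258, 0.462, 0.207 and 0.324 in nude, and 0.670, 0.896 and 0.594 in AR3_het. The AR3_mut and nude libraries of these 3 genes lay below AR3_het. Dnaaf3 had 0.0930 in AR3_mut 1 and 0.605 and 0.357 in AR3_mut 2 and 3, against 0.571 to 0.665 in AR3_het, so that AR3_mut 1 was low and the groups overlapped. For Cfap126, known as Flattop and a positioner of basal bodies, the groups overlapped, with 0.410, 0.474 and 0.5 in AR3_mut, 0.226, 0.231, 0.448 and 0.432 in nude, and 0.374, 0.443 and 0.519 in AR3_het. Cfap43, an axonemal protein needed for sperm flagella, had 0.243 in AR3_mut 1, against 0.0870 to 0.0902 in AR3_het. In AR3_mut 1, Dnah9, Tekt5, Dnaic2 and Dnaaf3 were low for its Foxj1 level and Cfap43 was high, relative to AR3_het. The ratios of AR3_mut 2 and 3 rest on 38 and 14 Foxj1 counts.

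**Figure D3:**
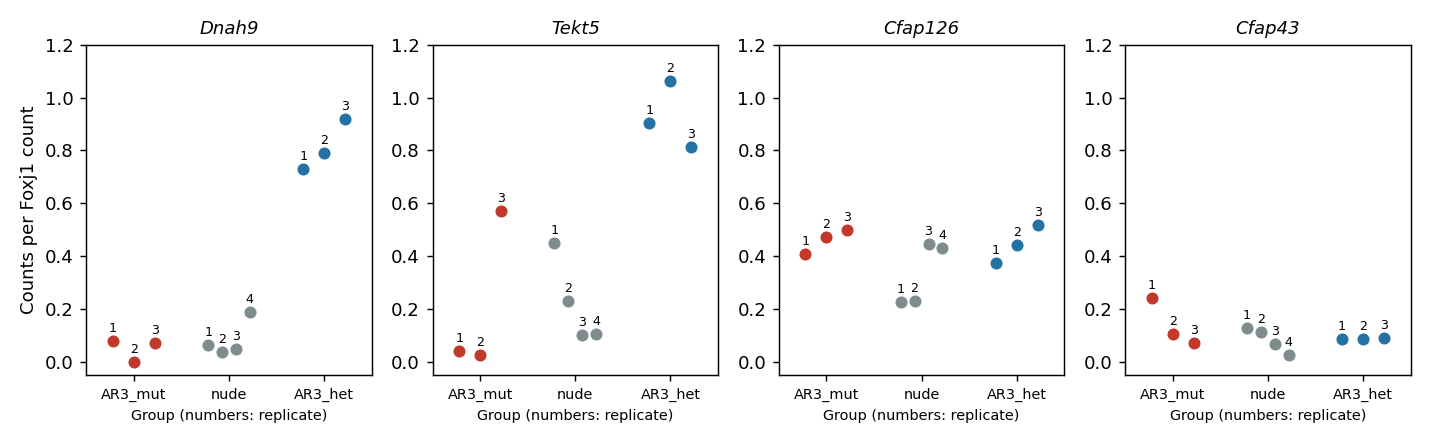
Counts of Dnah9, Tekt5, Cfap126 and Cfap43 per count of Foxj1 in each library (linear axis; points are libraries numbered by replicate). Dnah9 and Tekt5 lie at 0.732 or more in AR3_het and at 0.571 or less in AR3_mut and nude, while Cfap126 overlaps across the 3 groups.

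Spag8 (chr4:43651335-43653594, minus strand), a sperm-associated antigen of the axoneme, had 40.3, 5.79 and 8.96 CPM in AR3_mut, 1.45, 0.412, 1.66 and 1.64 CPM in nude, and 3.31, 4.55 and 2.15 CPM in AR3_het. All 3 AR3_mut libraries lay above AR3_het and all 4 nude libraries below it. It rose in AR3_mut, with 2.53 ± 0.66 (SE, adjusted p = 0.00932) on the log2 scale. Without AR3_mut 1 the value was 1.12 ± 0.54 (SE, adjusted p = 0.127), no longer past the threshold. Against nude it was higher in AR3_mut with and without AR3_mut 1, at 3.86 ± 0.71 (SE, adjusted p = 0.00626) with all libraries and 2.45 ± 0.59 (SE, adjusted p = 0.0331) without that library.

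Tekt2 (chr4:126322121-126325688, minus strand), a tektin of the axoneme, and Cfap69, a protein needed for sperm flagella and active in olfactory cilia, rose in both groups. Tekt2 had 12.5, 18.5 and 10.9 CPM in AR3_mut, 16.3, 26.4, 11.6 and 22.1 CPM in nude, and 5.17, 4.24 and 7.94 CPM in AR3_het. Every AR3_mut and nude library lay above every AR3_het library, and AR3_mut 1 was not the highest. The fitted log2 fold change was 1.27 ± 0.38 (SE, adjusted p = 0.0189) in AR3_mut, 1.37 ± 0.44 (SE, adjusted p = 0.03) without AR3_mut 1, and 1.71 ± 0.35 (SE, adjusted p = 0.00176) in nude. Cfap69 had 14.5, 8.68 and 3.98 CPM in AR3_mut, 10.8, 10.3, 6.64 and 6.14 CPM in nude, and 2.69, 2.73 and 3.86 CPM in AR3_het. Its AR3_mut and nude libraries lay above AR3_het, AR3_mut 3 by little, and the log2 fold change was 1.61 ± 0.46 (SE, adjusted p = 0.0144) in AR3_mut, 1.09 ± 0.49 (SE, adjusted p = 0.103) without AR3_mut 1, and 1.45 ± 0.43 (SE, adjusted p = 0.0152) in nude. Dnah11, an outer arm heavy chain, had 7.82, 2.89 and 3.98 CPM in AR3_mut, 5.78, 2.47, 4.42 and 2.87 CPM in nude, and 1.24, 2.12 and 1.5 CPM in AR3_het. It rose in AR3_mut, with 1.66 ± 0.52 (SE, adjusted p = 0.0231), but gave 1.06 ± 0.61 (SE, adjusted p = 0.199) without AR3_mut 1. In nude its value was 1.27 ± 0.49 (SE, adjusted p = 0.0502), just outside the threshold, and it was 1.28 ± 0.46 (SE, adjusted p = 0.0388) in the fit without AR3_mut 1. Dnah11 overlaps Cdca7l and Tekt2 overlaps Gm12945 on the opposite strand, and reads of such pairs cannot be told apart where the strand setting of the counting is not stated.

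**Figure D4:**
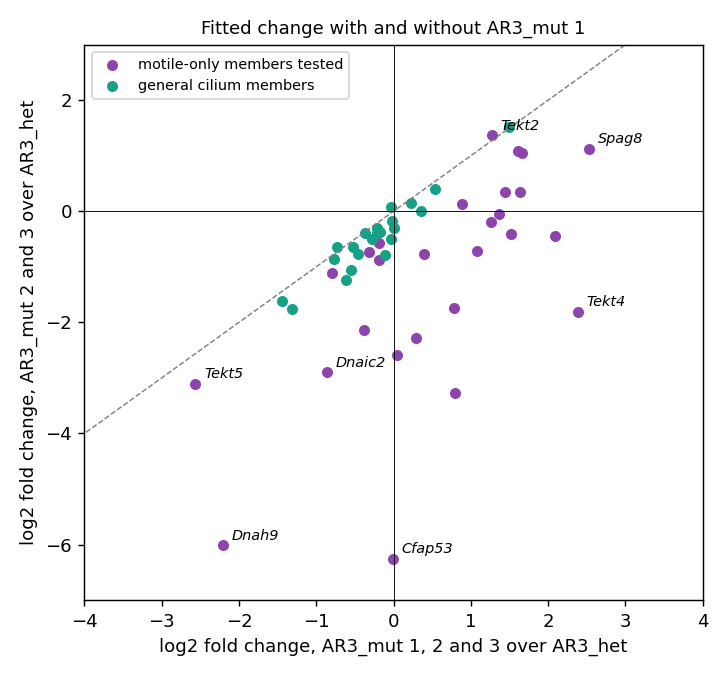
Fitted log2 fold change of AR3_mut over AR3_het with all 3 AR3_mut libraries (x axis) and without AR3_mut 1 (y axis) for the 27 motile-only genes tested and the 22 general cilium genes; the dashed line marks equal values. Most motile-only genes lie below the line, as Rsph1 does with 1.36 on the x axis and -0.05 on the y axis, and the value of Cfap53 on the y axis rests on 0 counts in AR3_mut 2 and 3.

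Without AR3_mut 1, Cfap53, a microtubule inner protein needed for laterality, had 0 counts in AR3_mut and 44 in AR3_het, at least 3.13-fold lower. Dnaic2 gave -2.89 ± 0.50 (SE, adjusted p = 0.0011), Spag1 -2.14 ± 0.69 (SE, adjusted p = 0.0306), and Dnah2 had 3 counts in AR3_mut and 84 in AR3_het, a log2 ratio of -2.58 with a 95% counting interval of -4.89 to -0.98. These 3 genes also fell in nude, as given below. With all libraries none of the 4 passed, their adjusted p lying between 0.319 for Dnaic2 and 0.995 for Cfap53.

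In nude against AR3_het, 4 of the 27 tested motile-only genes rose and 7 fell, where 23.7% of all genes tested rose and 24.2% fell (47.9% in all). The median log2 fold change was -1.07 over the 27 genes and -0.03 over all genes tested, and 21 of the 27 values were negative. This comparison shares the AR3_het libraries with the one above. The limit of the low-count filter given there holds here too, and for the comparisons and lists below. Such counts and medians describe the genes tested and not the set. The 7 that fell encode outer arm parts (Dnah5, Dnah9 and Dnaic2), an inner arm heavy chain (Dnah2), dynein assembly factors (Dnaaf3 and Spag1) and Tekt5. The 4 that rose were Tekt2, Cfap69, the inner arm heavy chain Dnah1 and the radial spoke protein Rsph9. The level of 14 of the 39 motile-only genes (35.9%) in all 4 nude libraries was below all 3 AR3_het libraries, and that of 5 (12.8%) was above, against 28.3% below and 25.5% above of all genes tested. The 39 include genes below the count filter, which the share over all genes tested leaves out. In the fit without AR3_mut 1, Dnah11 also rose and Cfap53 and Spag6 also fell, 5 higher and 9 lower in all, where 48.7% of genes passed. The count of 11 genes that passed was 6 without AR3_het 1 (1 higher and 5 lower), where 39.3% of all genes passed, 7 without AR3_het 2 (1 higher and 6 lower), where 40.3% did, and 7 without nude 1 or nude 4 (2 higher and 5 lower in each), where 44.3% and 44.1% did. Scaled to library totals, 1 gene was higher and 7 lower, where 54.3% of all genes passed, and with replicate numbers as a block 2 were higher and 6 lower, where 40.6% did.

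Dnah5 (chr15:28203752-28472052, plus strand), an outer arm heavy chain often mutated in primary ciliary dyskinesia, had 3 counts over the nude libraries and 48 over AR3_het, a log2 ratio of -3.56 with a 95% counting interval of -5.89 to -1.93. Its libraries had 10.2, 1.16 and 0 CPM in AR3_mut, 0.361, 0, 0.553 and 0.409 CPM in nude, and 4.97, 2.42 and 3.43 CPM in AR3_het. The test gave adjusted p = 0.018 for nude, and AR3_mut 1 was above every AR3_het library. The inner arm heavy chain Dnah2 had 16, 1.74 and 0 CPM in AR3_mut, 0.723, 1.24, 1.11 and 0 CPM in nude, and 7.86, 7.27 and 4.72 CPM in AR3_het. The log2 fold change in nude was -3.07 ± 0.97 (SE, adjusted p = 0.021). The nude libraries of both genes lay below all AR3_het libraries.

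Dnaic2 (chr11:114727408-114757889, plus strand), an outer arm intermediate chain, had 30.1, 4.05 and 1.99 CPM in AR3_mut, 2.89, 4.95, 6.64 and 4.91 CPM in nude, and 24.8, 31.2 and 16.9 CPM in AR3_het. It fell in nude, with -2.34 ± 0.64 (SE, adjusted p = 0.0104), and AR3_mut 2 and 3 were as low as the nude libraries while AR3_mut 1 was in the AR3_het range. Spag1, a cytoplasmic factor that assembles dynein arms, had 10.2, 2.32 and 0 CPM in AR3_mut, 1.81, 1.65, 2.21 and 1.64 CPM in nude, and 5.79, 7.58 and 5.79 CPM in AR3_het. Its log2 fold change in nude was -1.79 ± 0.66 (SE, adjusted p = 0.041). Dnaaf3, another assembly factor, had 11.4 ± 5.76 CPM in AR3_mut, 6.94 ± 1.81 CPM in nude and 21 ± 4.27 CPM in AR3_het (SD) and fell in nude, with -1.59 ± 0.34 (SE, adjusted p = 0.00244). Dnaaf3 overlaps Tnni3 on the same strand, so reads of these genes could be split by the counting.

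The other motile-only genes with a named role varied widely. Hydin, a giant protein of the central apparatus, had 16, 0 and 2.99 CPM in AR3_mut, 0.361, 0, 3.32 and 0.409 CPM in nude, and 2.69, 4.85 and 4.72 CPM in AR3_het. Its AR3_mut libraries ran from above AR3_het to 0, and it did not pass, with 0.78 ± 0.96 (SE, adjusted p = 0.552) in AR3_mut and -2.14 ± 1.12 (SE, adjusted p = 0.139) in nude. Without AR3_mut 1 it held 3 counts in AR3_mut and 51 in AR3_het, a log2 ratio of -1.86 with a 95% counting interval of -4.18 to -0.23, and the test gave adjusted p = 0.298. Rsph1, a radial spoke head protein, had 97.4, 18.5 and 14.9 CPM in AR3_mut, 9.39, 15.7, 14.4 and 17.2 CPM in nude, and 23, 19.4 and 10.5 CPM in AR3_het, and passed in neither comparison. Rsph9 had 34.7 ± 23.2 CPM in AR3_mut, 37.5 ± 5.25 CPM in nude and 19.4 ± 1.45 CPM in AR3_het (SD) and rose in nude, with 0.95 ± 0.34 (SE, adjusted p = 0.0357). Dnah1 had 4.75 ± 4.53 CPM in AR3_mut, 5.47 ± 1.32 CPM in nude and 1.9 ± 0.682 CPM in AR3_het (SD) and rose in nude, with 1.5 ± 0.55 (SE, adjusted p = 0.0422). Over the 14 tested motile-only genes that passed in neither comparison with AR3_het (Cfap126, Cfap45, Cfap52, Cfap53, Cfap57, Dnaaf2, Dnaaf5, Dnah8, Dnaic1, Hydin, Rsph1, Spag6, Tekt1 and Tekt4), the log2 fold changes ran from -0.32 for Dnah8 to 2.38 for Tekt4 in AR3_mut and from -2.34 for Spag6 to 1.49 for Cfap57 in nude. The 3 of them whose highest library was not AR3_mut 1 were Cfap57, Dnaaf5 and Dnah8.

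**Figure D5:**
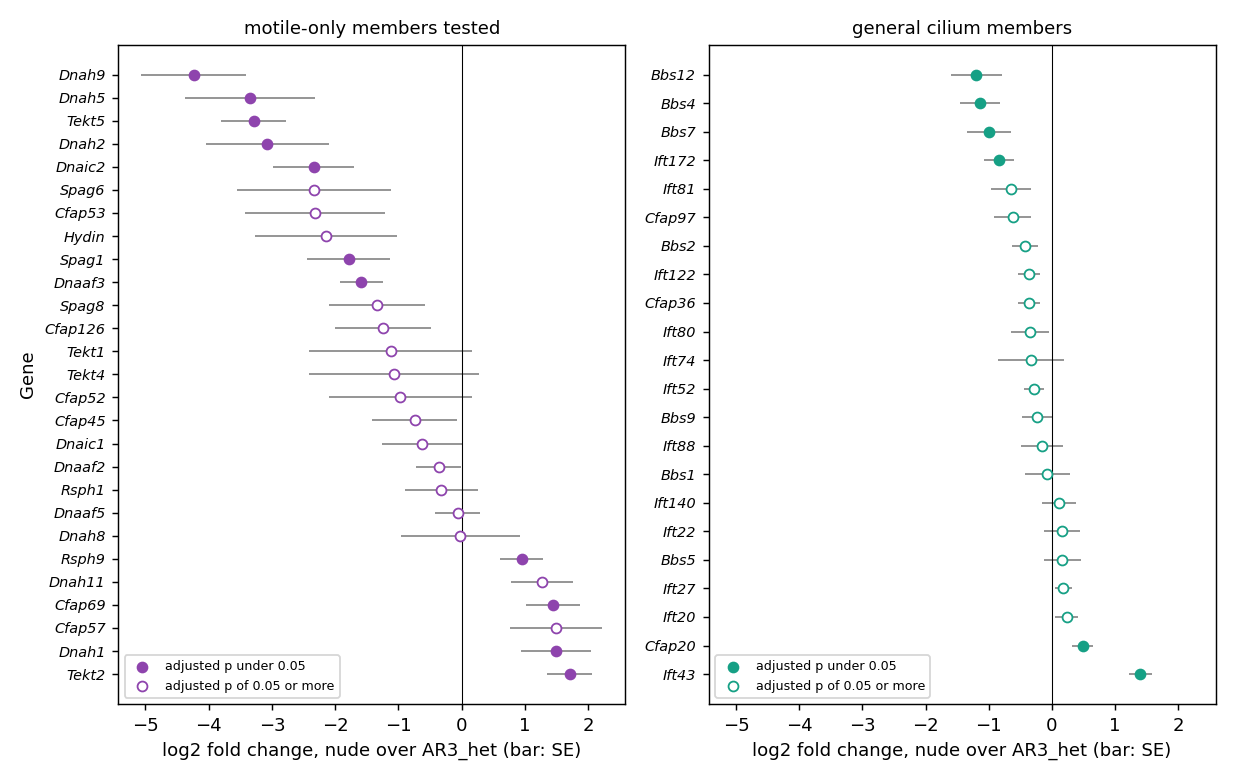
Fitted log2 fold change of nude over AR3_het for the 27 motile-only genes tested (left) and the 22 general cilium genes (right); bars are standard errors and filled points passed the test. The motile-only values run from -4.24 for Dnah9 to 1.71 for Tekt2, and the general cilium values from -1.19 for Bbs12 to 1.40 for Ift43.

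Of the 12 motile-only genes below the filter, 6 are Cfap genes (Cfap43, Cfap44, Cfap46, Cfap58, Cfap70 and Cfap74), 3 dynein heavy chains (Dnah6, Dnah7b and Dnah10), and the others are Dnaaf1, Rsph4a and Rsph14. Together they summed to 209.6, 27.2 and 11.9 CPM in AR3_mut, 11.9, 4.95, 15.5 and 9.42 CPM in nude and 23.4, 23.6 and 18.9 CPM in AR3_het. Only AR3_mut 1 exceeded 27.2 CPM. The inner arm heavy chain Dnah10 had 31.3, 2.32 and 2.99 CPM in AR3_mut, 0, 0, 0 and 1.23 CPM in nude, and 3.52, 2.12 and 2.15 CPM in AR3_het. It held 3 counts over the nude libraries and 34 over AR3_het, a log2 ratio of -3.06 and a 95% counting interval of -5.41 to -1.40. Dnah7b has near-identical copies (Dnah7a and Dnah7c), and its counts are uncertain.

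Between AR3_mut and nude, which both lack most Foxn1 transcript, 3 of 27 motile-only genes were higher in AR3_mut (Spag8, Dnah5 and Cfap45) and 0 lower, against 7.58% higher and 3.71% lower of all genes tested (11.3% in all). At an unadjusted p under 0.05, edgeR gave 10 higher and 0 lower, where 15.4% of all genes were higher and 11.9% lower. After adjustment DESeq2 called 6 higher and 0 lower, with 15.4% of all genes called (9.56% higher and 5.82% lower), and limma-voom 1 higher and 0 lower, with 10.6% of all genes called (7.3% higher and 3.27% lower). Cfap45, a microtubule inner protein, had 33.2, 8.68 and 3.98 CPM in AR3_mut, 1.45, 2.06, 6.08 and 3.28 CPM in nude, and 6.62, 3.64 and 5.15 CPM in AR3_het. Its log2 fold change over nude was 2.38 ± 0.66 (SE, adjusted p = 0.0392), and it gave 1.09 ± 0.61 (SE, adjusted p = 0.329) without AR3_mut 1. Dnah5 had 28 counts over the AR3_mut libraries and 3 over nude, a log2 ratio of 4.06 (95% counting interval 2.36 to 6.42), with adjusted p = 0.0479. Without AR3_mut 1 it held 2 counts in AR3_mut and 3 in nude, at or under the floor. Without that library Spag8 alone passed, where 6.75% of all genes did (4.93% higher and 1.82% lower), and 16 of 27 values were negative. The libraries of 3 of all 39 motile-only genes were all higher in AR3_mut than in nude, and those of 0 were all lower, against 12% higher and 8.73% lower of all genes tested. The 39 again include genes below the count filter.

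All 22 general cilium genes were tested. In AR3_mut against AR3_het 2 rose (Ift43 and Cfap20) and 4 fell (Bbs12, Bbs4, Bbs2 and Ift52), with a median log2 fold change of -0.21. In nude 2 rose (Ift43 and Cfap20) and 4 fell (Bbs12, Bbs4, Bbs7 and Ift172), with a median of -0.31. Both counts of 6 of 22 lie below the background of 41.8% in AR3_mut and 47.9% in nude. Without AR3_mut 1, Ift43 rose and Bbs4, Ift52, Ift80 and Ift81 fell in AR3_mut, with a median of -0.45, where 38.8% of all genes passed. The count of 6 in AR3_mut was 3 without AR3_mut 2 or AR3_het 2, where 36.3% and 34.9% of all genes passed. It was 2 without AR3_het 3, where 37.0% did. In nude the count of 6 was 3 without AR3_het 3, where 42.9% of all genes passed. Scaled to library totals it was 11 (10 lower), where 54.3% passed (37.7% lower).

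Ift43 (chr12:86082541-86162459, plus strand), a subunit of the IFT-A complex for transport back from the ciliary tip, had 105, 107 and 108 CPM in AR3_mut, 76.2, 121, 110.1 and 92.1 CPM in nude, and 32.7, 40.3 and 40.5 CPM in AR3_het. Every AR3_mut and nude library was well above the AR3_het range. The log2 fold change was 1.49 ± 0.19 (SE, adjusted p = 9.12e-05) in AR3_mut, 1.51 ± 0.22 (SE, adjusted p = 0.000341) without AR3_mut 1, and 1.40 ± 0.18 (SE, adjusted p = 7.42e-05) in nude. The other IFT-A genes with an Ift symbol did not pass, and intraflagellar transport genes under other names are counted in a list below. Ift122 gave -0.21 ± 0.19 (SE, adjusted p = 0.403) in AR3_mut and -0.37 ± 0.17 (SE, adjusted p = 0.101) in nude. Ift140 gave 0.36 ± 0.29 (SE, adjusted p = 0.354) in AR3_mut and 0.11 ± 0.27 (SE, adjusted p = 0.764) in nude.

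The IFT-B complex carries cargo toward the tip, and 9 of the Ift genes here encode subunits of it (Ift20, Ift22, Ift27, Ift52, Ift74, Ift80, Ift81, Ift88 and Ift172). Ift52, a core subunit, had 32.5, 26.6 and 25.9 CPM in AR3_mut, 32.5, 31.3, 38.7 and 33.2 CPM in nude, and 40.6, 43 and 39.9 CPM in AR3_het. It fell in AR3_mut, with -0.53 ± 0.18 (SE, adjusted p = 0.0311), and with -0.64 ± 0.20 (SE, adjusted p = 0.0289) without AR3_mut 1. Ift172, a peripheral subunit, had 73.9, 38.2 and 49.8 CPM in AR3_mut, 25.3, 23.5, 38.7 and 34 CPM in nude, and 52.3, 61.2 and 48.7 CPM in AR3_het. It fell in nude, with -0.84 ± 0.24 (SE, adjusted p = 0.0137). AR3_mut 1 was the highest library for Ift172 and the nude libraries lay below all AR3_het libraries. Ift80 and Ift81 fell in AR3_mut in the fit without AR3_mut 1, with -1.05 ± 0.35 (SE, adjusted p = 0.0349) for Ift80 and -1.23 ± 0.32 (SE, adjusted p = 0.0113) for Ift81.

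The BBSome escorts membrane proteins in and out of cilia. Bbs4, a core subunit, had 15.6, 11 and 3.98 CPM in AR3_mut, 13, 9.07, 13.8 and 13.5 CPM in nude, and 26.3, 29.7 and 25.5 CPM in AR3_het. No AR3_mut or nude library reached the AR3_het range. It fell in AR3_mut, with -1.31 ± 0.35 (SE, adjusted p = 0.0104), and in nude, with -1.14 ± 0.31 (SE, adjusted p = 0.0101), and its value was -1.75 ± 0.38 (SE, adjusted p = 0.00448) in AR3_mut without AR3_mut 1. Bbs12, a chaperonin-like protein that helps assemble the complex, had 2.35, 2.32 and 0.995 CPM in AR3_mut, 2.89, 3.3, 2.21 and 1.23 CPM in nude, and 4.14, 6.06 and 6.65 CPM in AR3_het. The AR3_mut and nude libraries again lay below AR3_het, with -1.45 ± 0.48 (SE, adjusted p = 0.0307) in AR3_mut, -1.62 ± 0.63 (SE, adjusted p = 0.0632) without AR3_mut 1, and -1.19 ± 0.41 (SE, adjusted p = 0.0298) in nude. Bbs2 had 19.2, 19.1 and 26.9 CPM in AR3_mut, 24.9, 23.1, 34.8 and 23.3 CPM in nude, and 33.5, 34.9 and 38 CPM in AR3_het. It fell in AR3_mut, with -0.73 ± 0.23 (SE, adjusted p = 0.0233), and gave -0.64 ± 0.27 (SE, adjusted p = 0.0829) without AR3_mut 1. Bbs7 had 10.6, 9.26 and 4.98 CPM in AR3_mut, 7.23, 3.71, 4.42 and 5.32 CPM in nude, and 9.93, 8.18 and 13.1 CPM in AR3_het. It fell in nude, with -0.99 ± 0.34 (SE, adjusted p = 0.032). Bbs4 overlaps Adpgk and Bbs12 overlaps Cetn4 on opposite strands, with the same limit as for Dnah11.

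Cfap20, a conserved protein of centrioles and doublet microtubules, had 127, 115 and 82.6 CPM in AR3_mut, 102, 113, 113 and 93.8 CPM in nude, and 70.6, 76.4 and 78.3 CPM in AR3_het. Every AR3_mut and nude library was above AR3_het, with a rise of 0.54 ± 0.18 (SE, adjusted p = 0.0308) in AR3_mut and 0.49 ± 0.17 (SE, adjusted p = 0.0312) in nude. It gave 0.41 ± 0.19 (SE, adjusted p = 0.116) without AR3_mut 1, and scaled to library totals it lost its call in both comparisons, at 0.24 in AR3_mut and 0.11 in nude. Between AR3_mut and nude 0 of the 22 general cilium genes passed edgeR's test, with 2 at an unadjusted p under 0.05, 1 by DESeq2 and 0 by limma-voom. Of all genes tested, 11.3% passed edgeR's test, 27.3% had an unadjusted p under 0.05, 15.4% passed by DESeq2 and 10.6% by limma-voom. Of the 14 general cilium genes that passed in neither comparison with AR3_het, the log2 fold changes ran from -0.77 for Cfap97 to 0.36 for Ift140 in AR3_mut and from -0.65 for Ift81 to 0.23 for Ift20 in nude.

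Among the 4 remaining genes, Tppp3, a microtubule-bundling protein used as a marker of ciliated and of some fibroblast-lineage cells, had 517, 416 and 635 CPM in AR3_mut, 302, 649.9, 224 and 409 CPM in nude, and 127, 125 and 82.4 CPM in AR3_het. Every AR3_mut and nude library was above every AR3_het library, and the log2 fold change was 2.23 ± 0.36 (SE, adjusted p = 0.000488) in AR3_mut, 2.24 ± 0.40 (SE, adjusted p = 0.00132) without AR3_mut 1, and 1.83 ± 0.34 (SE, adjusted p = 0.000984) in nude. Its order over libraries was not that of the motile-only genes, since AR3_mut 3 and nude 2 exceeded AR3_mut 1, and the fibroblast markers given above were also higher in AR3_mut and nude. The part of fibroblasts in this rise was not tested. Spag9, a scaffold protein of kinase signalling and vesicle transport, had 61.8, 87.4 and 101 CPM in AR3_mut, 69, 55.7, 58.1 and 62.2 CPM in nude, and 29.8, 20.6 and 37.1 CPM in AR3_het. It rose in AR3_mut, with 1.49 ± 0.24 (SE, adjusted p = 0.000452) and 1.68 ± 0.24 (SE, adjusted p = 0.0003) without AR3_mut 1, and in nude, with 1.06 ± 0.23 (SE, adjusted p = 0.00224). Spag5, a protein of the mitotic spindle, had 6.65, 5.21 and 4.98 CPM in AR3_mut, 6.86, 9.9, 6.08 and 4.09 CPM in nude, and 18, 20.3 and 19.1 CPM in AR3_het. It fell in AR3_mut, with -1.73 ± 0.34 (SE, adjusted p = 0.00159) and -1.89 ± 0.42 (SE, adjusted p = 0.00473) without AR3_mut 1, and in nude, with -1.5 ± 0.29 (SE, adjusted p = 0.00124). Spag7, which is broadly expressed, passed in neither.

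Lists of other ciliary genes gave the following counts. Of 39 other motile axoneme genes in the table, 29 were tested, and 3 passed in AR3_mut, each higher, against a background of 21.2% higher and 20.6% lower. In nude 9 passed, each lower, where 23.7% of all genes rose and 24.2% fell. Over nude, 10 were higher in AR3_mut and 0 lower, where 7.58% of all genes were higher. Without AR3_mut 1, 29 genes of the list were again tested. In AR3_mut 1 rose and 4 fell, where 19.2% of all genes rose and 19.5% fell. In nude 0 rose and 14 fell, where 23.4% of all genes rose and 25.3% fell. Over nude, 2 were higher and 0 lower in AR3_mut, where 4.93% of all genes were higher and 1.82% lower. In nude against AR3_het with all libraries, Meig1 of this list gave -3.95 ± 1.02 (SE, adjusted p = 0.00735) and Cdhr3 gave -3.78 ± 1.22 (SE, adjusted p = 0.0238). In the same comparison the axonemal protein Mns1 gave -3.17 ± 0.53 (SE, adjusted p = 0.00041) and the outer arm docking protein Ttc25 gave -2.61 ± 0.95 (SE, adjusted p = 0.0395). The summed level of the 39 was 1122, 225 and 228 CPM in AR3_mut, 128, 124, 205 and 149 CPM in nude and 298, 309.8 and 288 CPM in AR3_het, and 33 of the 39 were highest in AR3_mut 1. This list shares 10 genes with the 17 ciliated cell markers and is no separate measurement of them.

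Of 24 tested intraflagellar transport and BBSome genes under other names, 5 passed in AR3_mut, each lower (20.6% of all genes fell), and 1 rose and 5 fell in nude (23.7% of all genes rose and 24.2% fell). Without AR3_mut 1, 26 were tested, and 0 rose and 5 fell in AR3_mut, where 19.2% of all genes rose and 19.5% fell. In nude 2 rose and 5 fell in that fit, where 23.4% of all genes rose and 25.3% fell. Hspb11, which encodes an IFT-B subunit, had 16, 20.8 and 20.9 CPM in AR3_mut, 27.1, 35.1, 45.4 and 20.9 CPM in nude, and 81.7, 84.3 and 82.4 CPM in AR3_het. Its AR3_mut and nude libraries all lay below the AR3_het libraries, and AR3_mut 1 was the lowest of all. Its log2 fold change was -2.12 ± 0.27 (SE, adjusted p = 7.29e-05) in AR3_mut and -1.38 ± 0.23 (SE, adjusted p = 0.000389) in nude. The adaptor Tulp3 gave -1.93 ± 0.30 (SE, adjusted p = 0.000353) in AR3_mut and -1.94 ± 0.27 (SE, adjusted p = 0.000119) in nude, and the kinesin motor subunit Kif3b gave -1.40 ± 0.20 (SE, adjusted p = 0.000153) in AR3_mut and -1.11 ± 0.17 (SE, adjusted p = 0.000242) in nude. Without AR3_mut 1 all 3 passed as lower in AR3_mut, at -1.98 for Hspb11, -2.54 for Tulp3 and -1.36 for Kif3b. Of 39 tested genes of the transition zone, basal body and ciliary membrane, 7 rose and 4 fell in AR3_mut and 8 rose and 5 fell in nude, shares below the background of 41.8% in AR3_mut and 47.9% in nude for both directions together. Without AR3_mut 1, 6 of the 39 rose and 6 fell in AR3_mut, where 19.2% of all genes rose and 19.5% fell.

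Of 13 tested genes of the multiciliation programme, 1 rose and 5 fell in AR3_mut, and 1 rose and 7 fell in nude, where 20.6% of all genes fell in AR3_mut and 24.2% in nude. Without AR3_mut 1, 14 were tested, and 0 rose and 6 fell in AR3_mut, where 19.2% of all genes rose and 19.5% fell. In nude 1 rose and 8 fell in that fit, where 23.4% of all genes rose and 25.3% fell. The transcription factor Myb had 10.9, 2.32 and 0.995 CPM in AR3_mut, 0.723, 0.412, 0.553 and 0 CPM in nude, and 86.3, 50.3 and 79.6 CPM in AR3_het. It fell, with -3.67 ± 0.53 (SE, adjusted p = 0.000218) in AR3_mut and -7.27 ± 0.65 (SE, adjusted p = 5.53e-06) in nude, and it gave -5.28 in AR3_mut without AR3_mut 1. Myb is also strongly expressed in immature thymocytes, whose markers were highest in AR3_het as given above. The 16 genes of this list, Myb included, summed to 287, 197 and 217 CPM in AR3_mut, 172, 185, 243 and 200 CPM in nude, and 352, 327 and 351 CPM in AR3_het. Of these sums Myb alone gave 10.9 CPM in AR3_mut 1 and 50.3 to 86.3 CPM in AR3_het. Ccno, a cyclin-like protein of multiciliated cells and one of the ciliated cell markers above, had 31.3, 11 and 13.9 CPM in AR3_mut, 9.39, 10.3, 4.98 and 11.9 CPM in nude, and 24.2, 48.2 and 38.8 CPM in AR3_het. It fell in nude, with -1.99 ± 0.39 (SE, adjusted p = 0.00122). Plk4 and Sass6, which also duplicate centrioles in dividing cells, fell in both comparisons, and without AR3_mut 1 Sass6 did not pass in AR3_mut (adjusted p = 0.0846, edgeR).

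The authors' deposited table, in which AR3_mut carries another name and was identified because the other groups are named, gave adjusted p under 0.05 for 7 motile-only genes in AR3_mut over AR3_het, 5 of them positive, where 17.6% of its 15790 genes were positive and 19.8% negative at that threshold. For AR3_het over nude, which runs the other way from the values above, the authors' deposited table gave 9 positive and 4 negative motile-only genes, where 24.9% of all genes were positive and 20% negative. For AR3_mut over nude the authors' deposited table gave 9 positive and 0 negative, where 7.81% of all genes were positive and 4.67% negative. The authors' values were not recomputed without AR3_mut 1, and in the edgeR fit without that library Spag8 alone passed in this comparison.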

How the data were processed

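The values are whole-number counts per gene that the authors deposited for 10 MARS-seq libraries, in a table that also holds the authors' log2 fold changes and p-values. Per the submitters' processing notes, the tools were bcl2fastq, cutadapt, STAR 2.4.2a, HTSeq and DESeq2, with mm10 as the build. Neither the strand setting nor any collapsing of molecular identifiers is stated in the sources used here, and intervals cover counting error only. A further 20 per-library columns that the table holds were not used.

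All 10 libraries were fitted together by group with edgeR 4.0.16 (R 4.3.3; TMM scaling, filterByExpr with a minimum count of 10 and a minimum total of 15, robust quasi-likelihood test, two-sided, Benjamini-Hochberg threshold 0.05), which kept 12912 of 15790 genes, 55 of the 69 described here among them. Standard errors are the log2 fold change over the square root of F. CPM are on the TMM scale, and a floor of 3 counts over a group bounds a fold against 0. The alternatives were library totals, DESeq2 1.42.0, limma-voom (limma 3.58.1), no filter, at least 5 CPM in 3 libraries, a replicate block, only the groups compared and leaving out each library. The fit was tested on simulated data. Gene coordinates are from GENCODE M21 (GRCm38) and promoters from RefSeq (GRCm38.p6).

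The gene set, its classes and the lists were chosen with earlier results of these data known. Values in every library are given for the 6 genes the rule names singly and, in each class, for up to 6 genes with the largest log2 fold change among those that passed in AR3_mut or nude against AR3_het; other genes named were chosen after their values were seen.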

Additional observations from a re-analysis of the deposited data

Results flagged for a closer look

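Of 37 values compared over the 4 nude libraries (genes named here and summed levels), 5 had 1 library far from the other 3 by Dixon's test, of which chance gives about 1 in 20. Nude 3 was the high library in 4 of them. Tekt1, a tektin, had 17.7 CPM in nude 3, against 0 to 1.45 CPM in the rest of nude. Hydin had 3.32 CPM in nude 3, against 0 to 0.409 CPM in the rest of nude. Rfx3 had 3.87 CPM in nude 3, against 1.64 to 1.81 CPM in the rest of nude, and Bbs2 had 34.8 CPM in nude 3, against 23.1 to 24.9 CPM in the rest of nude. Dnah8, an axonemal dynein heavy chain, had 13.9 CPM in nude 4, against 0.361 to 1.24 CPM in the rest of nude.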

How the results depend on the processing

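The count of motile-only genes that passed in AR3_mut against AR3_het (6) was 2 to 13 when each library was left out in turn. For the general cilium genes (6) it was 2 to 7, and 3 with the replicate block. Of all genes, 33.8% to 44.4% passed when each library was left out and 37.1% with the block. In nude against AR3_het the motile-only count (11) was 6 to 14 when each library was left out, where 39.3% to 49.2% of all genes passed. It was 17 of 25 tested without AR3_mut 1 and nude 3 together, an alternative added after seeing the data, where 50.0% of all genes passed. The general cilium count (6) was 3 to 7, 11 with library totals and 3 with the block, where 54.3% and 40.6% of all genes passed in the last 2. In AR3_mut against nude, 1458 genes passed in all, 883 to 1993 when each library was left out, 948 with the block and 952 with only the groups compared. The motile-only count there (3) was 1 to 10 when each library was left out (1 without AR3_mut 1, AR3_het 1, nude 1, nude 2 or nude 4, 8 without AR3_mut 2, 10 without AR3_mut 3 and 6 without nude 3), 6 with DESeq2 or no filter, and 1 with limma-voom, the block, only the groups compared or both libraries left out. The general cilium count there (0) was 0 to 1, and 1 with library totals, DESeq2 or the 5 CPM filter. Of all genes, 6.75% to 15.5% passed there when each library was left out. The share was 15.4% with DESeq2, 9.09% with no filter, 10.6% with limma-voom, 7.34% with the block and 8.49% with only the groups compared. It was 11.2% with library totals, 11.7% with the 5 CPM filter and 10.1% with both libraries left out. The sign reversed for Foxj1 in AR3_mut against AR3_het (-0.86 to 1.56 when each library was left out, lowest without AR3_mut 1, and -0.85 with both left out, where it passed as lower, adjusted p = 0.0377, edgeR), for Hydin (-0.57 with limma-voom, -1.75 to 1.28 when each library was left out, lowest without AR3_mut 1, and -1.77 with both left out) and for Rfx2 in AR3_mut against nude (-0.11 to 0.35 when each library was left out, with -0.01 without AR3_mut 3 and -0.11 without nude 3), none of which had passed with all libraries in the fit. The cause was not tested. Library totals shifted the median of all genes from -0.04 to -0.33 in AR3_mut and from -0.03 to -0.41 in nude against AR3_het, with 2066 of 5947 genes higher in AR3_mut and 2145 of 7012 in nude. The labels do not say whether replicate numbers pair the libraries. After centring within each group, same-numbered AR3_mut and AR3_het libraries correlated at 0.03, -0.30 and -0.11. Centring on so few libraries ties these values together, so they cannot decide whether the libraries are paired. The calls of Ift43, Bbs4, Tekt5, Rfx2, Tppp3, Spag5 and Spag9 against AR3_het passed under every alternative run, as did Dnah9, Dnaic2 and Ift172 in nude and Spag8 in AR3_mut over nude. Depth, lowest in AR3_mut 3, limits the genes near 0 counts.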
